A study of Mus musculus with 15 samples.

Results

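The 9 genes described here encode proteins that move calcium and metabolites into and out of mitochondria: Mcu, Mcub, Smdt1, Micu2 and Mcur1 of the inner-membrane calcium uniporter, the exchanger gene Slc8b1, and Vdac1, Vdac2 and Vdac3 of the outer-membrane channels. They were taken by name from the 22507 genes of the deposited table, where all 9 were found, and all 9 were among the 13074 genes with enough counts to be tested. RNA-seq was done on N2a cells, a mouse neuroblastoma line (ATCC CCL-131), at day 3 after co-transfection of an siRNA at 50 nM with a plasmid, using DharmaFECT Duo. In 4 groups the siRNA was directed at Opa1, the gene of the inner-membrane fusion GTPase OPA1. Of these, the V560F group received a plasmid for OPA1 with the V560F change, the V465F group one with the V465F change, the wild-type OPA1 group one for unaltered OPA1, and the knockdown group a control plasmid. The control group received a control siRNA with a control plasmid. Each group had 3 libraries, 15 in all. The groups are transient transfections of 1 cell line. The deposited descriptions of the control-plasmid libraries hold the tag myc, and what that plasmid carried is not stated further. The species of the OPA1 inserts was not given in the sources used here. Whether the 3 libraries of a group came from separate cultures is not stated either, so p-values take in only how these libraries vary, and that variation may be technical.

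Calcium entering mitochondria crosses the outer membrane through voltage-dependent anion channels (VDACs), the abundant pores that also carry ATP, ADP and other metabolites, and then the inner membrane through the uniporter, driven by the membrane potential. Mcu forms the uniporter's pore, Mcub is a related subunit that lowers its activity, the small protein encoded by Smdt1 (EMRE) ties the pore to its gatekeepers, Micu2 is one of those calcium-sensing gatekeepers, and Mcur1 is a regulator of uptake. The product of Slc8b1, known as NCLX, returns calcium to the cytosol in exchange for sodium. In neurons this traffic shapes calcium signals and sets the activity of matrix dehydrogenases.

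The 3 promoter windows below are shown because they belong to genes with different courses across the groups: Vdac1 and Smdt1, which with TMM scaling had the largest V560F differences from the control among the genes with an entry, and Mcu, which with that scaling hardly changed among the Opa1 siRNA groups. Each is the 250 bases before the RefSeq start of transcription on build GRCm38.p6, written 5′ to 3′ on the gene's own strand, at chr11:52360601-52360850 on the plus strand for Vdac1, chr15:82345796-82346045 on the plus strand for Smdt1 and chr10:59616693-59616942 on the minus strand for Mcu. Capitals mark every match to the 7 motifs searched on both strands.
Vdac1: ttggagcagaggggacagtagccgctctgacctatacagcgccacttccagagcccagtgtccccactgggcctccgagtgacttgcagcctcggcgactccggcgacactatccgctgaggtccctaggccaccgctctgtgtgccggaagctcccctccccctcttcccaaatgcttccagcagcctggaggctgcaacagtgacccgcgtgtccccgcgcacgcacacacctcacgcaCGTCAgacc
Smdt1: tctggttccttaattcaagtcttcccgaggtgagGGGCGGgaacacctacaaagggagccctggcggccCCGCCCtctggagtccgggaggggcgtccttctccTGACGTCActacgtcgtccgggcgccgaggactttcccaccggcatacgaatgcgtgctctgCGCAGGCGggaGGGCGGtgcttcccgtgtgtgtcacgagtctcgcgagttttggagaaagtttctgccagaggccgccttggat
Mcu: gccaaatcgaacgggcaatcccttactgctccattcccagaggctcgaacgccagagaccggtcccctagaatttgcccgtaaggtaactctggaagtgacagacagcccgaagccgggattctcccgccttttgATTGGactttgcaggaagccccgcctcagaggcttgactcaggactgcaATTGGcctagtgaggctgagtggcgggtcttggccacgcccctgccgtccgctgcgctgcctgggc
In the Smdt1 window the capitals include a CRE (TGACGTCA), which begins 146 bases before the start and also holds the shorter CRE motif TGACG on both strands, an NRF1 core (CGCANGCG) 84 bases before it, and 3 GC boxes (GGGCGG). Of 32851 promoter windows of that length, 1.55% held the CRE, 6.76% the NRF1 core and 32.7% a GC box. The Vdac1 window has 1 match to that shorter motif (in 17.8% of windows), read on the other strand 9 bases before the start. The Mcu window has a pair of CCAAT boxes (CCAAT, in 33.8% of windows), both on the other strand, 115 and 66 bases before the start. Neither the YY1 core (GCCATNTT, 3.91% of windows) nor TATAAA (12.4%) was found in these 3 windows. Mcub, Micu2 and Mcur1 also had entries, and Vdac1 had a second window, which is not shown. Vdac2, Vdac3 and Slc8b1 are named only. A match describes letters and is not evidence of binding.

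Library totals ran between 20070123 and 27809960 counts. Opa1 itself averaged 36.8 ± 2.52 CPM (counts scaled by TMM to a common library size) in the knockdown, against 95.9 ± 4.94 in the control (SD, n = 3 each; log2 fold change -1.38, edgeR quasi-likelihood adjusted p 8.53e-10). It averaged between 31.4 and 33.9 CPM in the 3 groups that also received an OPA1 plasmid, no higher than in the knockdown, and whether a plasmid transcript would be counted under the mouse gene was not tested. Of 13 sympathetic neuroblast markers 12 averaged above 1 FPKM, and the sum of the list was 1626 to 1884 FPKM per library. Of the fibroblast, immune and glial markers none reached 1 FPKM on average, and of 4 endothelial markers only Pecam1 did. Libraries also differed in how levels depended on transcript length. With each gene centred on its mean over all libraries, the slope of log2 level on length moved with the groups. It was -0.82 to -0.31 in V560F, -0.30 to -0.22 in V465F and -0.07 to 0.22 with wild-type OPA1. In the knockdown it was 0.20 to 0.22 and in the control 0.32 to 0.51. A slope therefore gives a shift relative to the other libraries, not the dependence within 1 library. V560F replicate 2, at -0.82, and wild-type OPA1 replicate 3, at -0.07, lay apart from the other libraries of their groups. Because of this every fold change was also computed with a correction for length and GC content, and corrected values are given below where they bear on a call or its size. A level in CPM is relative to the other RNA of the library, so less of a transcript per cell and more of other transcripts cannot be told apart.

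The channel genes were among the most abundant transcripts in these cells and the uniporter genes were spread over a wide range. Per length, Vdac1 averaged 326 FPKM over the 15 libraries, Vdac2 270.3 FPKM and Vdac3 181 FPKM, each higher than at least 97.6% of the tested genes. Smdt1 averaged 85.5 FPKM and Mcub 84.3 FPKM, and Micu2 averaged 34.3 FPKM. Mcu, the pore itself, averaged 10.7 FPKM and Slc8b1 7.79 FPKM. Mcur1 was the lowest at 1.92 FPKM, with 151 to 289 counts per library, and its fold changes have the widest errors of the set. An F test over the 5 groups called all 9 genes (edgeR quasi-likelihood, adjusted p between 4.80e-10 for Vdac2 and 0.0329 for Mcu), where 71.4% of all tested genes were called.

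**Figure D1:**
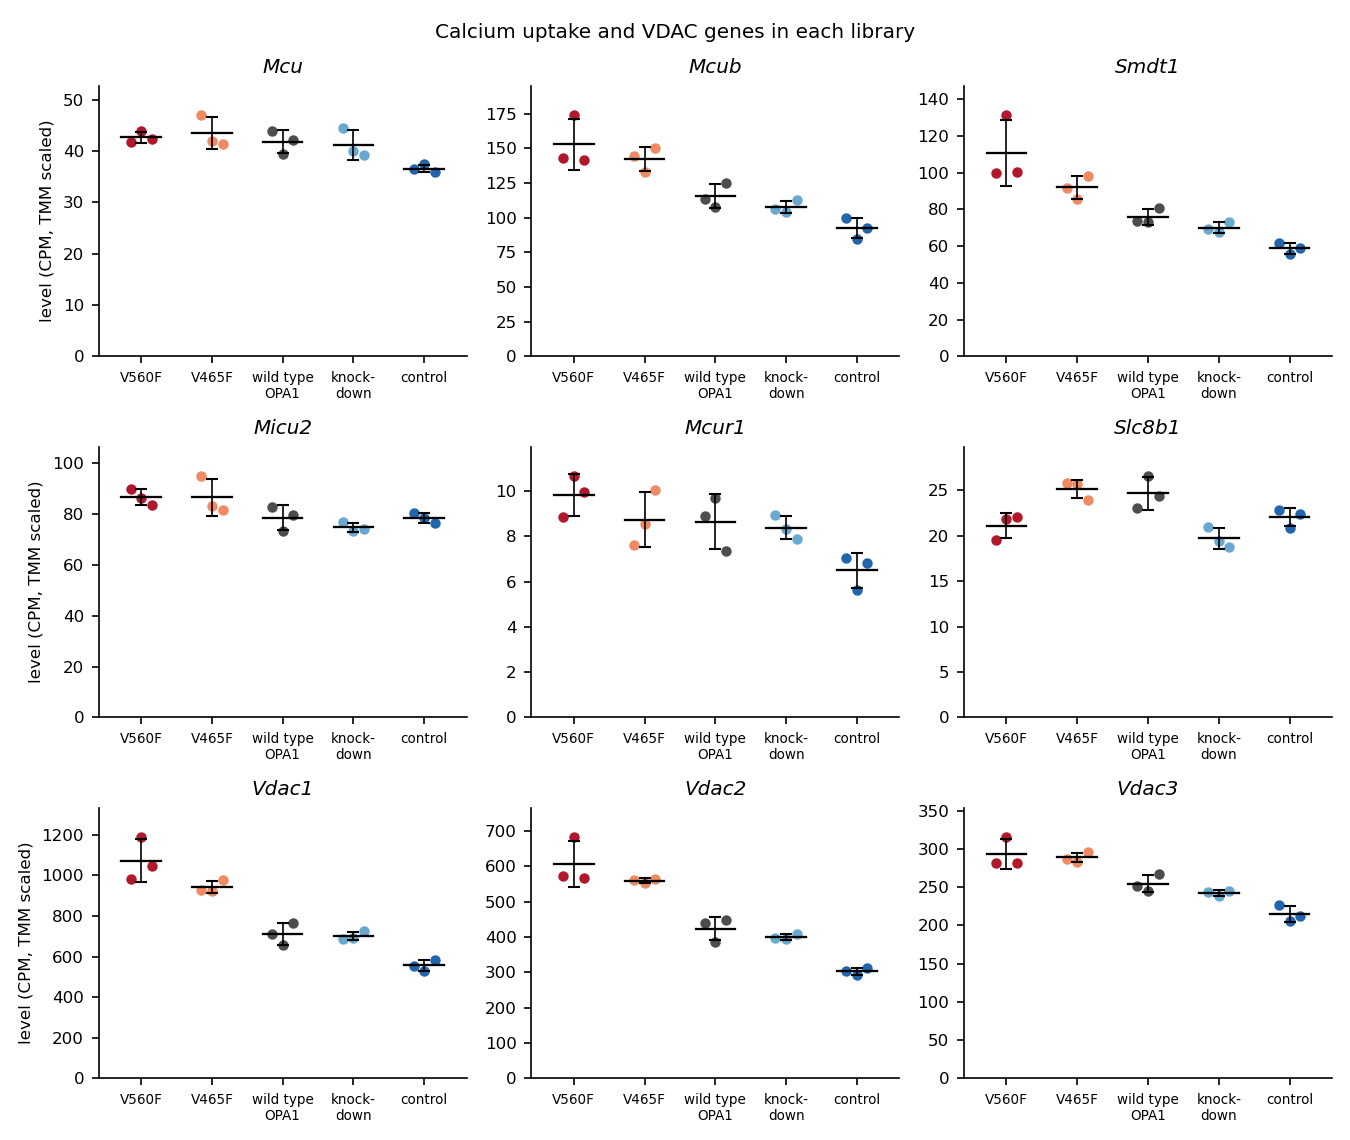
Levels of the 9 genes (CPM, TMM scaled) in each library. Groups run from V560F, V465F, wild-type OPA1 and knockdown to control, each point is 1 library, and bars give the mean and SD of 3 libraries. Vdac1 and Vdac2 form 3 tiers, with the V560F and V465F libraries at or above 924 and 552 CPM and the control libraries at or below 583 and 311 CPM, while Mcu stays between 39.3 and 47.1 CPM in the 4 siRNA groups.

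Vdac1 and Vdac2 were higher with both OPA1 mutants than with wild-type OPA1, and higher in the knockdown than in the control. VDAC1 is known for passing calcium released by the endoplasmic reticulum, and VDAC2 is also known for holding the apoptosis effector Bak. Vdac1 stood at 982, 1189 and 1047 CPM in the V560F libraries and at 928, 924 and 975 CPM in the V465F libraries. It stood at 713, 659 and 768 CPM with wild-type OPA1, at 685, 693 and 724 CPM in the knockdown and at 554, 531 and 583 CPM in the control. The V560F libraries lay above the V465F libraries and both lay above all others, the wild-type OPA1 and knockdown libraries overlapped, and both of these lay above the control. Against wild-type OPA1, Vdac1 rose 1.504-fold with V560F (log2 0.59 ± 0.07 SE, adjusted p 1.68e-06) and 1.32-fold with V465F (0.40 ± 0.07, adjusted p 0.000216). In the knockdown it rose 1.26-fold against the control (0.33 ± 0.07, adjusted p 0.00139).

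Vdac2 followed the same steps. Its levels were 571, 683 and 566 CPM with V560F, 562, 552 and 565 CPM with V465F, and 439, 385 and 447 CPM with wild-type OPA1. They were 398, 395 and 409.7 CPM in the knockdown and 303, 293 and 311 CPM in the control. The V465F libraries differed little from each other (SD 6.44 CPM) and lay just below the V560F libraries, and the wild-type OPA1 and knockdown libraries again overlapped. Vdac2 rose 1.43-fold with V560F against wild-type OPA1 (log2 0.52 ± 0.07, adjusted p 5.26e-06), 1.32-fold with V465F against wild-type OPA1 (0.40 ± 0.07, adjusted p 0.0002) and 1.32-fold in the knockdown against the control (0.41 ± 0.07, adjusted p 0.000243). With TMM scaling V560F stood above the control 2.01-fold for Vdac2 (log2 1.00) and 1.93-fold for Vdac1 (log2 0.95). Corrected for length and GC content, the V560F difference from wild-type OPA1 was 0.49 for Vdac1 (adjusted p 4.83e-08) and 0.26 for Vdac2 (adjusted p 6.29e-05). The knockdown difference from the control was then 0.30 for Vdac1 (adjusted p 7.12e-05) and 0.29 for Vdac2 (adjusted p 2.99e-05). For V465F against wild-type OPA1 the corrected difference was 0.33 for Vdac1 and 0.23 for Vdac2. Both genes stayed called in all 27 alternative settings of these 3 comparisons, but the size moved. With plain library totals the V560F difference from wild-type OPA1 was 0.33 for Vdac1 and 0.26 for Vdac2, the V465F difference 0.24 for both, and the knockdown difference from the control 0.19 for Vdac1 and 0.26 for Vdac2. The V560F difference from the control was 0.60 for Vdac2 and 0.78 for Vdac1 with the length and GC correction. Plain library totals gave 0.58 for Vdac2 and 0.52 for Vdac1.

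Vdac3, the least abundant of the 3 channels here, moved less. VDAC3 is the least studied isoform and is known for its oxidisable cysteines. It stood at 282, 316 and 281 CPM with V560F, at 287, 283 and 296 CPM with V465F and at 252, 245 and 267 CPM with wild-type OPA1. In the knockdown it stood at 243, 238 and 245 CPM and in the control at 226, 206 and 213 CPM. The V560F and V465F libraries overlapped and lay above the rest, and the knockdown libraries lay above the control. With TMM scaling it rose 1.15-fold with V560F (log2 0.20 ± 0.06, adjusted p 0.00951) and 1.13-fold with V465F (0.18 ± 0.06, adjusted p 0.0238), both against wild-type OPA1, and 1.13-fold in the knockdown against the control (0.17 ± 0.06, adjusted p 0.0344). With the correction for length and GC content the V560F difference turned to -0.17 (adjusted p 0.00448) and the V465F difference to -0.04 (adjusted p 0.54), and the knockdown difference was 0.02 (adjusted p 0.708). The direction for Vdac3 therefore rests on the scaling, while that of Vdac1 and Vdac2 was the same in each scaling run.

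Per length, the makeup of the channel family shifted. Vdac3 made up 20.8, 19.6 and 20.3% of the summed Vdac FPKM in the V560F libraries, and 21.8, 21.7 and 21.8% in the V465F libraries. It made up 23.9, 25.3 and 24.2% with wild-type OPA1, 24.6, 24.1 and 23.9% in the knockdown and 27.8, 26.7 and 25.7% in the control. No V560F or V465F library overlapped the other 3 groups, and the smallest exact two-sided permutation p that 3 libraries against 3 allow, 0.1, was reached for every pair of groups but wild-type OPA1 against knockdown (p 0.6). Vdac1 took 44.0 ± 0.87% with V560F and 42.2 ± 0.44% with V465F, against 40.7 ± 0.49% with wild-type OPA1. Its share was 41.6 ± 0.45% in the knockdown and 41.1 ± 0.82% in the control, whose libraries overlapped. Vdac2 took 35.8 ± 0.78% with V560F and 36.1 ± 0.46% with V465F, overlapping the 34.8 ± 0.82% with wild-type OPA1, and 34.2 ± 0.097% in the knockdown against 32.2 ± 0.33% in the control, without overlap (SD, n = 3 each). The 3 genes differ in length, 2394 bases for Vdac1, 1662 for Vdac2 and 1423 for Vdac3, and the share depends on how length enters. The V560F difference of Vdac1 over that of Vdac3, against wild-type OPA1, was 0.39 on the log2 scale with TMM scaling and 0.65 with the correction. The correction takes out length and GC content together. GC content also differs between these genes (51.1% for Vdac1 and 39.1% for Vdac3), and the part of each was not tested.

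**Figure D2:**
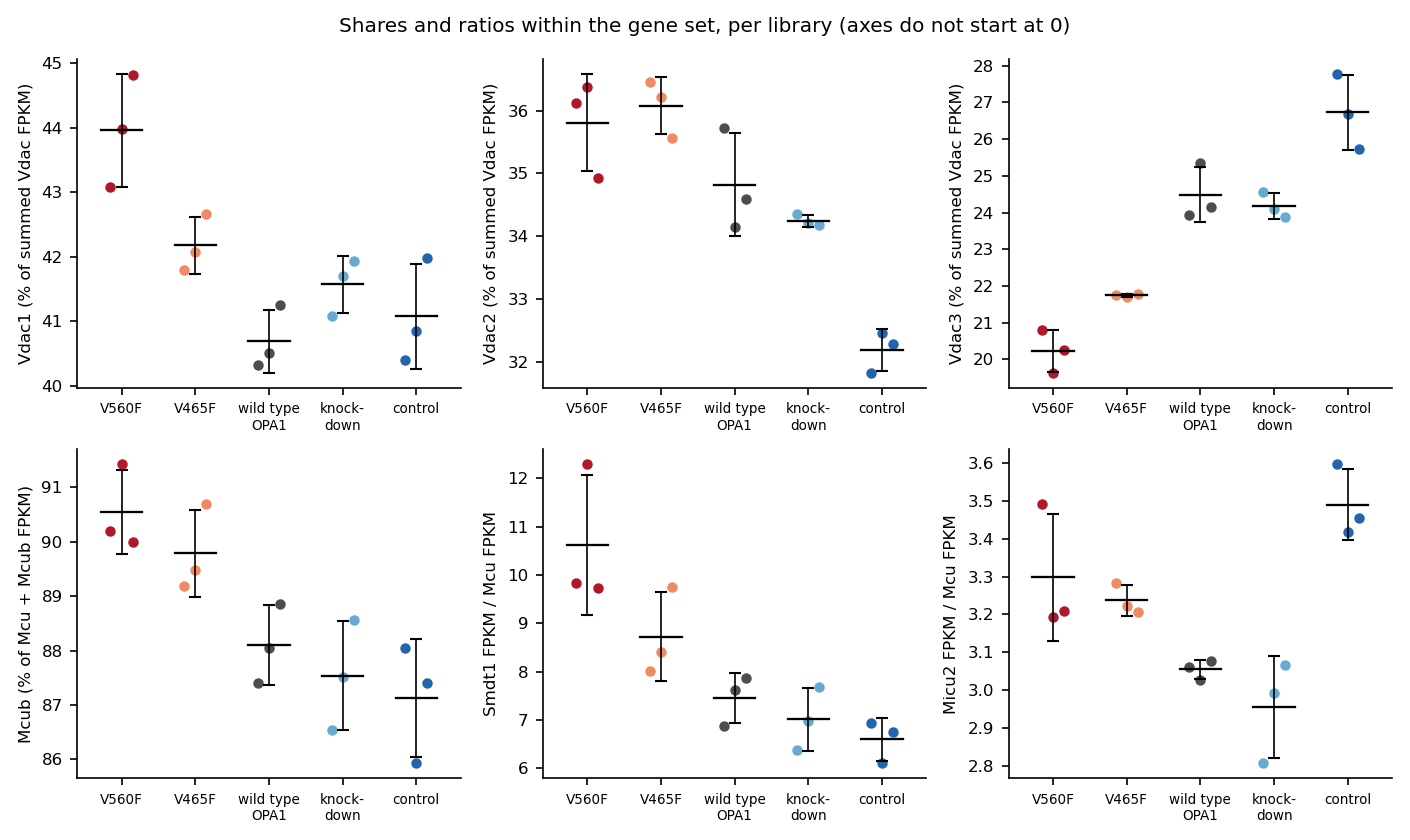
Shares and ratios within the gene set, from the deposited FPKM, in each library. Groups run from V560F to control, each point is 1 library, bars give the mean and SD of 3 libraries, and no axis starts at 0. Vdac3 falls to 20.2% of the channel FPKM with V560F, against 26.7% in the control, and Smdt1 per Mcu reaches 10.6 with V560F, against 6.60 in the control.

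Among the uniporter's core subunits, Mcub and Smdt1 were called higher with both OPA1 mutants than with wild-type OPA1 in TMM-scaled counts, and the pore gene Mcu was not called. Mcu was at 41.9, 44.0 and 42.4 CPM with V560F, at 47.1, 42.0 and 41.5 CPM with V465F and at 44.0, 39.4 and 42.2 CPM with wild-type OPA1. It was at 44.6, 39.9 and 39.3 CPM in the knockdown and at 36.5, 37.4 and 36.0 CPM in the control. The 4 Opa1 siRNA groups overlapped one another and every one of their libraries lay above the control. With TMM scaling V560F differed from wild-type OPA1 by 0.03 ± 0.07 on the log2 scale (95% interval -0.12 to 0.18), and V465F by 0.06 ± 0.07 (-0.09 to 0.21). With plain library totals Mcu was called lower with V560F, by -0.23 against wild-type OPA1 (adjusted p 0.0149) and by -0.23 against the knockdown (adjusted p 0.0152). The difference of the knockdown from the control, 0.17 ± 0.07, missed the threshold (adjusted p 0.068), and those of wild-type OPA1 (0.19, adjusted p 0.0372), V560F (0.22, adjusted p 0.0104) and V465F (0.25, adjusted p 0.00513) passed it. The wild-type OPA1 call was lost without any 1 of the control libraries or wild-type OPA1 replicate 1 or 3. The direction turns with plain library totals, where Mcu differed from the control by -0.20 with V560F (adjusted p 0.0236) and by -0.08 with V465F (adjusted p 0.353). Corrected for length and GC content these differences were 0.32 (adjusted p 0.000165) and 0.33 (adjusted p 0.000135).

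Mcub, the paralog that lowers uniporter activity, was at 143, 174 and 142 CPM with V560F and at 144, 133 and 150.1 CPM with V465F. It was at 113, 108 and 125 CPM with wild-type OPA1, at 107, 104 and 113 CPM in the knockdown and at 99.7, 84.9 and 92.8 CPM in the control. The V560F and V465F libraries overlapped each other and lay above all the rest, with V560F replicate 2 the highest. With TMM scaling Mcub rose 1.33-fold with V560F (log2 0.41 ± 0.08, adjusted p 0.000286) and 1.23-fold with V465F (0.30 ± 0.08, adjusted p 0.0055), both against wild-type OPA1, and 1.17-fold in the knockdown against the control (0.22 ± 0.08, adjusted p 0.0383). Corrected for length and GC content these 3 differences were 0.12, 0.11 and 0.12 and none passed the threshold (adjusted p 0.0712, 0.122 and 0.0839). Plain library totals also ended these 3 calls (0.14, 0.14 and 0.08, adjusted p 0.085, 0.123 and 0.408), and the knockdown call held in 17 of 27 settings. The V560F difference from the control was 0.73 before and 0.28 after the correction (adjusted p 6.71e-05 after it), and stayed called.

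Smdt1, whose product EMRE is needed for the animal uniporter to open, had the largest V560F difference from wild-type OPA1 among the uniporter genes with TMM scaling, an order that did not hold with the length and GC correction. Its levels were 100.1, 131 and 100.3 CPM with V560F, 91.6, 85.9 and 98.4 CPM with V465F and 73.6, 73.1 and 80.7 CPM with wild-type OPA1. They were 69.1, 67.8 and 73.3 CPM in the knockdown and 61.5, 55.5 and 59.1 CPM in the control. The V560F, V465F and control libraries each stood apart, wild-type OPA1 and knockdown overlapped, and V560F replicate 2 was again the highest. Smdt1 rose 1.46-fold with V560F (log2 0.55 ± 0.09, adjusted p 2.48e-05) and 1.21-fold with V465F (0.28 ± 0.09, adjusted p 0.0144) against wild-type OPA1, and 1.19-fold in the knockdown against the control (0.26 ± 0.09, adjusted p 0.027). With a length of 935 bases Smdt1 is the shortest transcript of the set. With the length and GC correction the differences were 0.12 (adjusted p 0.0816), -0.01 (adjusted p 0.927) and 0.09 (adjusted p 0.214). Only those of V560F from the knockdown (0.16, adjusted p 0.0214) and from the control (0.24, adjusted p 0.000367) stayed called.

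In the deposited FPKM, Smdt1 per Mcu was 10.6 ± 1.45 with V560F and 8.72 ± 0.92 with V465F, against 7.46 ± 0.52 with wild-type OPA1, 7.01 ± 0.65 in the knockdown and 6.60 ± 0.44 in the control (SD, n = 3 each). Mcub made up 90.5 ± 0.77% of Mcub plus Mcu with V560F and 89.8 ± 0.80% with V465F, against 88.1 ± 0.73% with wild-type OPA1, 87.5 ± 1.00% in the knockdown and 87.1 ± 1.08% in the control. In both measures the V560F and V465F libraries did not overlap the wild-type OPA1, knockdown or control libraries (exact permutation p 0.1, the smallest possible). These ratios combine a long and a short transcript. The V560F difference of Smdt1 over that of Mcu, against wild-type OPA1, was 0.52 on the log2 scale with TMM scaling and 0.01 with the length and GC correction, and that of Mcub over Mcu was 0.38 and 0.01.

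The gatekeeper gene Micu2 differed little between groups with TMM scaling. It was at 89.8, 86.3 and 83.6 CPM with V560F, at 94.9985, 83.2 and 81.7 CPM with V465F and at 82.8, 73.4 and 79.7 CPM with wild-type OPA1. In the knockdown it was at 76.9, 73.4 and 74.0 CPM and in the control at 80.6, 78.6 and 76.4 CPM. The V560F libraries lay just above the wild-type OPA1 libraries and the V465F libraries overlapped them, and neither difference passed the threshold (log2 0.14 ± 0.07 for both, adjusted p 0.0921 and 0.104). Against the knockdown both were called (0.21 each, adjusted p 0.0113 for V560F and 0.0131 for V465F), and with the length and GC correction neither was (0.07 and 0.12, adjusted p 0.396 and 0.128). The V465F call was also lost without V465F replicate 1. With plain library totals Micu2 was instead called lower than in the control, by -0.22 in the knockdown (adjusted p 0.0255), -0.28 with V560F (adjusted p 0.00167) and -0.19 with V465F (adjusted p 0.0258). Per Mcu, Micu2 averaged 2.96 ± 0.13 in the knockdown against 3.49 ± 0.09 in the control, without overlap (exact permutation p 0.1, the smallest possible), and the log2 difference of Micu2 over Mcu, -0.24 with TMM scaling, was -0.33 with the correction.

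Mcur1, the low-abundance regulator, was at 8.86, 10.7 and 9.98 CPM with V560F, at 7.63, 8.54 and 10.0 CPM with V465F and at 8.88, 9.72 and 7.34 CPM with wild-type OPA1. It was at 8.93, 8.34 and 7.90 CPM in the knockdown and at 7.04, 5.62 and 6.84 CPM in the control. All libraries with Opa1 siRNA lay above all control libraries, and the 4 siRNA groups overlapped. In the knockdown Mcur1 rose 1.29-fold against the control (log2 0.37 ± 0.14, adjusted p 0.0432), and V560F stood 1.52-fold above the control (0.60 ± 0.14, adjusted p 0.00077). The knockdown call was lost without any 1 of 7 libraries, among them all 3 of the knockdown, control replicates 2 and 3, wild-type OPA1 replicate 1 and V465F replicate 2. It was also lost in 5 other settings, with plain library totals (0.23, adjusted p 0.219), limma on either pseudocount, the filter of 5 CPM and the replicate block (0.37, adjusted p 0.0547). The V560F difference from the control was not called with plain library totals (0.18, adjusted p 0.271) or with limma, where it went down to 0.11, and was 0.75 with the length and GC correction. With that correction V560F was also called above the knockdown (0.35, adjusted p 0.0414), against 0.23 with TMM scaling (adjusted p 0.178). Against wild-type OPA1, V560F differed by 0.18 ± 0.14 (95% interval -0.11 to 0.47) and V465F by 0.01 ± 0.14 (-0.28 to 0.30), and the corrected V560F difference was 0.30 (adjusted p 0.0868).

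Slc8b1, the calcium efflux gene, had an order of groups of its own. It was at 19.5, 21.8 and 22.0 CPM with V560F, at 25.8, 25.7 and 24.0 CPM with V465F and at 23.0, 26.6 and 24.3 CPM with wild-type OPA1. In the knockdown it was at 21.0, 19.5 and 18.7 CPM and in the control at 22.8, 20.9 and 22.4 CPM. The V465F and wild-type OPA1 libraries overlapped and lay above all libraries of the other 3 groups, which overlapped one another. With TMM scaling Slc8b1 was the only gene of the set to fall with V560F against wild-type OPA1 (log2 -0.23 ± 0.09, adjusted p 0.0347). That call was lost without V560F replicate 1, wild-type OPA1 replicate 2 or wild-type OPA1 replicate 3, with adjusted p reaching 0.171, and with 5 other settings including DESeq2, and held with the length and GC correction (-0.21, adjusted p 0.0352). Wild-type OPA1 stood 0.32 ± 0.08 above the knockdown (95% interval 0.15 to 0.50), which had an unadjusted p of 0.000982 and an adjusted p of 0.363. V465F stood 0.35 ± 0.09 above the knockdown (adjusted p 0.00218), a call lost with plain library totals (0.16, adjusted p 0.14). With that scaling the V560F difference was -0.49 against wild-type OPA1 (adjusted p 0.000156) and -0.48 against the control (adjusted p 8.46e-05), where TMM scaling made no call, and the knockdown was called below the control (-0.30, adjusted p 0.0138). With the length and GC correction V465F was called above the control (0.20, adjusted p 0.0353). The difference of V465F from V560F, 0.25 ± 0.09, was not called (adjusted p 0.166).

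Counted by comparison, and with the share of all tested genes called in the same direction, the knockdown against the control raised 6 of the 9 genes (Mcub, Smdt1, Mcur1 and the 3 Vdac genes) and lowered none, where 19.9% of all genes were higher and 16% lower. Without control replicate 2, control replicate 3, knockdown replicate 1 or knockdown replicate 3 only Vdac1 and Vdac2 were called there, and without knockdown replicate 2 there were 3 calls. Over all genes the calls were then 3235 of 13214, 4151 of 13233, 3903 of 13267 and 3315 of 13270 in that order. Without knockdown replicate 2 they were 3639 of 13269. Wild-type OPA1 against the knockdown called none of the 9, and 0% of all genes in either direction. In that comparison Slc8b1 was the 1 gene of the set with an unadjusted p under 0.05, as were 1157 of all genes, and DESeq2 called 5 genes in all and none of the 9. V560F against wild-type OPA1 raised 5 (Mcub, Smdt1 and the 3 Vdac genes) and lowered Slc8b1, where 24.5% of all genes were higher and 24.9% lower. V465F against wild-type OPA1 raised the same 5 and lowered none, where 18.1% were higher and 20% lower. Without wild-type OPA1 replicate 1 or 2 or V465F replicate 3 the calls were 3, Mcub, Vdac1 and Vdac2. Over all genes they were then 4098 of 13276, 3650 of 13277 and 3634 of 13298. Both comparisons use the same 3 wild-type OPA1 libraries. V465F against V560F called none of the 9, with 0% of all genes higher and 0.00765% lower, which is 1 gene. Smdt1, Vdac1 and Slc8b1 had unadjusted p under 0.05 there, as did 2373 of all genes, and DESeq2 called 147 genes in all. Without V560F replicate 1, Smdt1 and Vdac1 were called lower with V465F than with V560F. In that setting 322 of all 13296 tested genes were called higher and 496 lower, 818 in all.

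Against the knockdown, V560F raised 6 of the 9 (Mcub, Smdt1, Micu2 and the 3 Vdac genes), where 26.3% of all genes were higher and 27.6% lower, and V465F raised 7 (those and Slc8b1), where 21.9% were higher and 24.1% lower. Against the control, wild-type OPA1, V560F and V465F each raised 7, all but Micu2 and Slc8b1. The shares of all genes were 22.1% higher and 19.3% lower for wild-type OPA1, 32.9% and 36.2% for V560F, and 30.7% and 34.5% for V465F. The median log2 fold change of the 9 genes was 0.20 with V560F and 0.18 with V465F against wild-type OPA1, beside -0.02 over all tested genes in both, and 0.22 in the knockdown against the control, beside 0.01. Plain library totals moved the median of all genes to -0.14 in the knockdown against the control, -0.29 in V560F against wild-type OPA1 and -0.48 in V560F against the control, and changed the split of calls. With them 2 of the 9 were higher and 2 lower in the knockdown against the control, where 974 of all 13074 genes were higher and 3439 lower. With V560F against wild-type OPA1, 3 of the 9 were higher and 2 lower, where 1209 of all genes were higher and 5939 lower. V560F against the knockdown then gave 4 higher and 1 lower, where 1463 of all genes were higher and 6245 lower. Against the control, Mcu, Micu2 and Slc8b1 were then called lower with V560F, and Micu2 with V465F. Vdac1 and Vdac2 were among the higher genes in each of these comparisons.

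Length and fold change moved together across the whole table. With tested genes in 10 equal bins by length, those of the shortest bin, with a median length of 936 bases, had a median log2 fold change of 0.46 with V560F and 0.30 with V465F against wild-type OPA1 and 0.20 in the knockdown against the control. In the longest bin it was -0.29, -0.16 and -0.09. Smdt1, at 0.55, 0.28 and 0.26 in these comparisons, lay between the lower and upper quartiles of genes of its length each time, while Vdac1 and Vdac2 lay above the upper quartile in all 3. With the correction 4 of the 9 genes rose in the knockdown against the control (Mcu, Mcur1, Vdac1 and Vdac2), where 23.3% of all genes were higher and 17.4% lower. V560F against wild-type OPA1 then gave Vdac1 and Vdac2 higher and Vdac3 and Slc8b1 lower (23.3% and 21.7% of all genes), and V465F against wild-type OPA1 gave Vdac1 and Vdac2 higher (18.4% and 18.9%). What sets the length dependence was not tested.

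**Figure D3:**
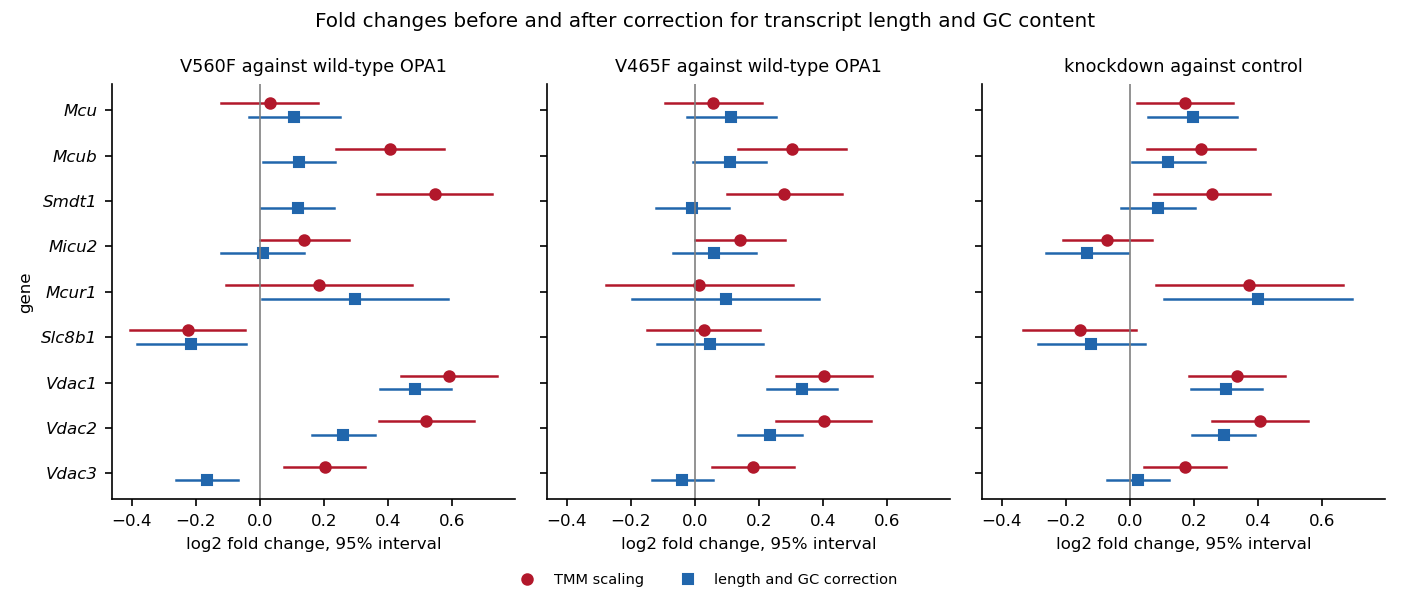
Log2 fold changes of the 9 genes with 95% intervals, for V560F and V465F against wild-type OPA1 and for the knockdown against the control. Circles use TMM scaling and squares the correction for transcript length and GC content. Vdac1 and Vdac2 stay to the right of 0 in both, at 0.59 and 0.49 for Vdac1 with V560F, while Smdt1 is at 0.55 with TMM scaling and 0.12 with the correction.

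**Figure D4:**
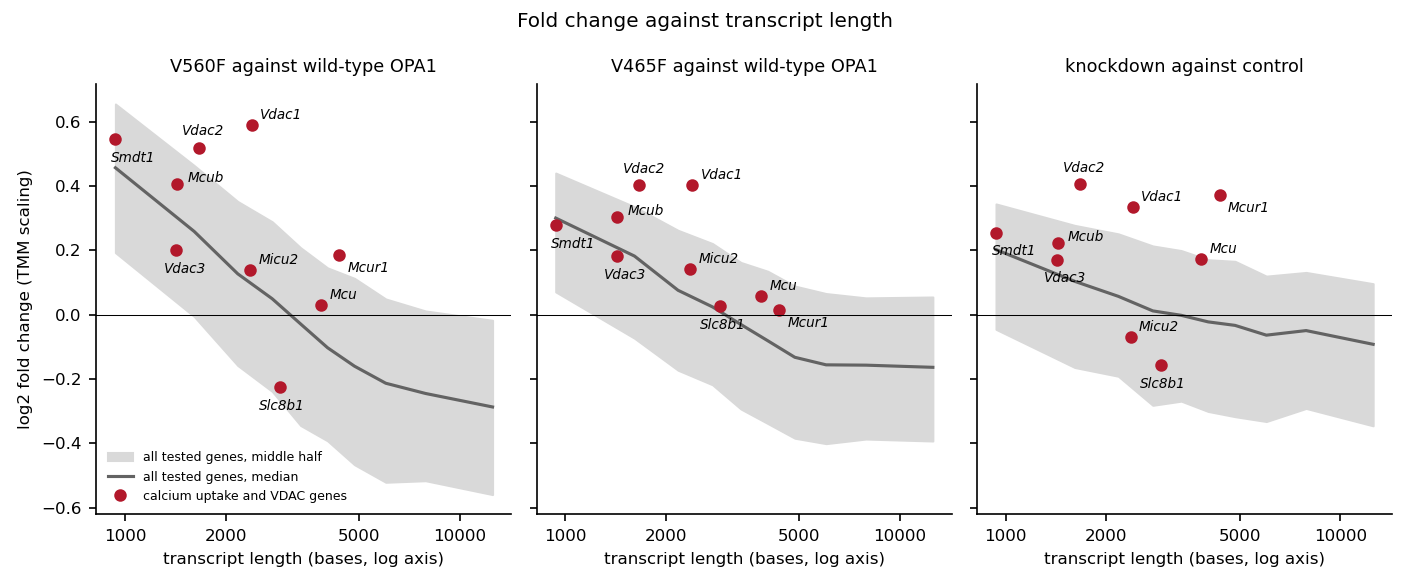
Log2 fold change with TMM scaling against transcript length (log axis) for the 9 genes and for all tested genes in 10 bins of length. The line is the median and the band runs from the lower to the upper quartile of all tested genes. Smdt1, Mcub and Vdac3 lie inside the band in all 3 comparisons, and Vdac1 and Vdac2 lie above it.

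Other genes of mitochondrial calcium handling were called in both directions. Of 22 tested genes on that list, 8 rose and 4 fell with V560F against wild-type OPA1, 7 rose and 5 fell with V465F against wild-type OPA1, and 9 rose and 1 fell in the knockdown against the control. Over all tested genes the shares higher and lower were 24.5% and 24.9%, 18.1% and 20%, and 19.9% and 16% in these comparisons. The list's median log2 fold changes were -0.01, 0.02 and 0.12, beside -0.02, -0.02 and 0.01 over all genes. Slc25a25, a calcium-regulated carrier of ATP-Mg and phosphate, was at 133.8 ± 4.69 CPM with V560F and 132.0 ± 7.94 with V465F, against 95.4 ± 5.92 with wild-type OPA1, and at 93.0 ± 2.24 in the knockdown against 57.6 ± 2.67 in the control. It rose in all 3 comparisons (log2 0.49, 0.47 and 0.69, adjusted p 3.43e-06, 1.37e-05 and 3.74e-07). Idh3b, a subunit of the isocitrate dehydrogenase that calcium activates, rose by 0.59 and 0.44 on the log2 scale with V560F and V465F against wild-type OPA1 (adjusted p 2.12e-06 and 0.000128), and Idh3g, another subunit of that enzyme, by 0.57 and 0.46 (adjusted p 2.11e-06 and 5.19e-05). Ghitm, an inner-membrane protein linked to calcium transport, rose by 0.38 in both (adjusted p 0.000114 and 0.000228), and with plain library totals the V560F call was lost (0.11, adjusted p 0.0818).

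On the list of VDAC partners and endoplasmic reticulum calcium genes, 12 of 39 rose and 9 fell with V560F against wild-type OPA1, 10 rose and 5 fell with V465F, and 11 rose and 4 fell in the knockdown against the control (medians 0.06, 0.05 and 0.09). The shares of all tested genes are those given for the first list, and the share of this list called higher or lower with V560F is near them. The gene of hexokinase 2, an enzyme that docks on VDAC, moved in the direction opposite to Vdac1 and Vdac2. Hk2 averaged 27.9 ± 1.85 CPM with V560F and 32.2 ± 2.89 with V465F, against 59.1 ± 1.62 with wild-type OPA1, and 60.8 ± 4.46 in the knockdown against 72.2 ± 2.82 in the control (SD, n = 3 each). It fell by 1.09 on the log2 scale with V560F (adjusted p 4.46e-09) and by 0.88 with V465F (adjusted p 1.10e-07) against wild-type OPA1, and held in every alternative setting of both. Slc25a5, the adenine nucleotide translocase 2, rose by 0.66 and 0.42 in these comparisons (adjusted p 1.52e-06 and 0.000326). Hspa9, the chaperone that bridges VDAC1 to the endoplasmic reticulum calcium channel, rose by 0.39 and 0.31 (adjusted p 5.19e-05 and 0.00106). Tomm70a, an import receptor of the outer membrane known to sit at such contacts, fell by 0.53 and 0.48 (adjusted p 2.73e-06 and 1.67e-05). Apart from Ghitm, the named genes of both lists stayed called in every setting of these 2 comparisons, with sizes that moved. Hspa9 went down to 0.13 and 0.14, Idh3b to 0.31 and 0.25, Idh3g to 0.28 and 0.26, and Slc25a5 to 0.33 and 0.20. With plain library totals Slc25a25 was at 0.23 and 0.30.

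Over the 5 group means, the 9 genes differed in how alike their patterns were, measured as the root mean square difference of centred log2 levels over the 5 groups. Vdac1 and Vdac2 differed by 0.05 and Vdac1 and Smdt1 by 0.05, while Vdac2 and Slc8b1, the most unlike pair, differed by 0.36. Nearest patterns were sought among the other tested genes with a mean of at least 5 CPM. Names starting with LOC or with Gm and a digit, or ending in Rik, were left out. The patterns nearest to Vdac1 were those of Eif3e and Rhox2g (0.01 each), and nearest to Vdac2 those of Yif1b (0.01) and Elovl1 (0.02). Smdt1 was nearest to Pomp and Cox5a (0.02 each), Mcub to Selenof and Sh3glb1 (0.01 each), and Vdac3 to Glb1 and Ube2f (0.01 each). Mcu was nearest to Zfp263 and Mrpl1 (0.01 each), Micu2 to Rnf14 and Pmm2 (0.01 each), and Mcur1 to Syngr3 and Sart1 (0.02 each). The nearest to Slc8b1, Vac14 (0.03) and Bop1 (0.04), were farther off. These are likenesses over 5 means of shared libraries, in TMM-scaled levels, and carry no test. Vdac1 and Smdt1 part with the length and GC correction, at 0.78 and 0.24 in V560F against the control and 0.63 and 0.12 in V465F against the control.

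Counting could mix some of these genes with neighbours. In the GENCODE M21 annotation Smdt1 shares 245 exon bases with Pheta2 on the same strand, which averaged 0.05 FPKM with V560F and 0.19 FPKM in the control, far below Smdt1. The strand setting of the counting was not given in the sources used here, and Vdac2 shares 25 exon bases with Comtd1 on the opposite strand, which averaged 3.83 FPKM with V560F and 2.15 FPKM in the control. The annotation also holds 1 pseudogene named for this family, Vdac3-ps1, which is not in the deposited table. Whether reads that match both copies, or that fall in shared exon bases, were placed on 1 gene or left out was not tested.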

How the data were processed

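Per the labels' protocols, total RNA came from TRIzol extraction and library construction used the VAHTS Universal V6 kit. The authors deposited raw counts and FPKM per gene and library. The upstream tools named in the submitters' processing notes are HISAT2, HTSeq, fastp and R 3.2.0, with build GRCm39, and the strand setting was not given in the sources used here. Gene lengths were solved from the deposited counts, FPKM and library totals, and the same length per gene fitted all libraries to within a largest relative gap of 1.22e-06. That is not a check against annotated lengths.

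Counts were scaled by TMM, filtered with filterByExpr and fitted over all 15 libraries with edgeR 4.0.16 (quasi-likelihood test, R 4.3.3). P-values were adjusted by Benjamini-Hochberg over 13074 genes, and calls made at 0.05. The median biological coefficient of variation was 8.22%. A length and GC correction (splines with 5 degrees of freedom per library, 12510 genes) used the gene length implied by the deposited counts and FPKM. GC content was that of the longest GENCODE M21 transcript, matched by Entrez gene ID and then by symbol. Alternatives used DESeq2 1.42.0 and limma 3.58.1, the latter on log2(FPKM + 1) and log2(FPKM + 0.1), which keep the scaling by library totals. Ratios of FPKM were compared by exact two-sided permutation. Scripts were tested on simulated data. From each list the 4 genes with the lowest p of the F test are named, and for each of the 9 genes the 2 nearest patterns. Genes and lists were chosen with earlier results of these data known. Counting error weighs most on Mcur1, which has the fewest counts.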

Additional observations from a re-analysis of the deposited data

How the results depend on the processing

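Over 27 alternative settings the 90 fold changes of the 9 genes gave 2430 values, of which 2234 kept their side of the threshold, 126 lost the call, 38 gained one and 32 reversed. Among values called neither way 77 changed sign, and these are counted with those that kept their side. Vdac1 and Vdac2 stayed called in the same direction in every setting of the 8 comparisons in which they were called. The count of genes called went to 2 with a filter of 5 CPM (knockdown against control), where 4027 of all 10098 genes were called. For V465F against wild-type OPA1 it went to 2 with library totals, limma on FPKM + 1, limma on FPKM + 0.1, and the length and GC correction. In that order 5404, 5269 and 5276 of 13074 and 4671 of 12510 genes were called in all. V465F against knockdown went to 4 with the same settings, and wild-type OPA1 against control to 3 with the first 3 of these. The counts over all genes for V465F against knockdown and wild-type OPA1 against control are not given here. A drop there is therefore not read as particular to the 9 genes. With no filter, V465F against V560F called 1 of the 9 genes, Smdt1, and 580 of 22507 genes in all. The cause was not tested.

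Leaving out 1 library at a time gave 2 to 7 called genes for the knockdown against control, 3 to 5 for V465F against wild-type OPA1, 0 to 2 for V465F against V560F, 5 to 6 for V560F against wild-type OPA1, 6 to 7 for V465F against knockdown and 5 to 7 for wild-type OPA1 against control. Calls over all genes ran from 3235 of 13214 to 5598 of 13304 for the knockdown against control. They ran from 3634 of 13298 to 5741 of 13304 for V465F against wild-type OPA1. For V560F against wild-type OPA1 they ran from 5381 of 13277 to 6451 of 13296, and for V465F against V560F from 0 to 818. Those for V465F against knockdown and wild-type OPA1 against control are not given here. With a replicate block the counts were 5 for the knockdown against control, 6 for V560F against wild-type OPA1 and 5 for V465F against wild-type OPA1. Of all 13074 genes 4676, 6446 and 4995 were then called. The numbers do not pair the libraries: over 30 same-numbered pairs the correlation of deviations ran from -0.18 to 0.09.

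Values that reversed are log2 differences, with library totals, limma on FPKM + 1 and limma on FPKM + 0.1 in that order. Mcu was -0.23, -0.21 and -0.23 in V560F against wild-type OPA1, -0.23, -0.20 and -0.22 in V560F against knockdown, -0.20, -0.18 and -0.20 in V560F against control, and -0.0808, -0.0754 and -0.0818 in V465F against control. Micu2 was -0.0643, -0.0635 and -0.0653 in V560F against knockdown, -0.281, -0.274 and -0.281 in V560F against control, and -0.188, -0.186 and -0.190 in V465F against control. Vdac3 was -0.0601, -0.0598 and -0.0601 in V560F against wild-type OPA1 and -0.00414, -0.00417 and -0.00419 in V560F against knockdown. With the length and GC correction Vdac3 was -0.166 in V560F against wild-type OPA1, -0.0818 in V560F against knockdown, -0.0578 in V560F against control and -0.0394 in V465F against wild-type OPA1, and Smdt1 was -0.00811 in V465F against wild-type OPA1. Depth limits Mcur1 most, at 151 to 289 counts per library.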
